A study of Coilia nasus with 12 samples.

Results

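Sphingolipids are membrane lipids built on a long-chain base, and ceramide stands at the centre of their metabolism. Serine palmitoyltransferase condenses serine with a fatty acyl-CoA in the first and rate-limiting step, ceramide synthases attach a fatty acid, and a desaturase completes ceramide, which then receives a head group to become sphingomyelin, a glycosphingolipid or ceramide phosphate. Sphingomyelinases and glycosidases return ceramide, ceramidases release sphingosine from it, and sphingosine kinases convert sphingosine to sphingosine 1-phosphate, a signalling lipid. In the gut these lipids are known as components of the apical membrane of epithelial cells.

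Transcripts of these enzymes and their regulators were followed in the stomach of Coilia nasus, an anchovy that migrates from the sea into rivers to spawn. Members were taken by gene name, with a fixed pattern of symbols covering synthesis, breakdown, sphingosine 1-phosphate turnover and regulation. The pattern found 59 of the 63567 assembled transcript clusters (unigenes), which carried 37 gene names. Roles were assigned to 54 of them: 23 synthesis unigenes with 15 names, 19 breakdown unigenes with 12 names, 7 of sphingosine 1-phosphate turnover with 3 names, and 5 of regulation and transport with 4 names. The other 5 were matched by their letters only: 2 unigenes named GBAS, a mitochondrial NipSnap protein, and 3 named SMPDL3A or SMPDL3B, which resemble acid sphingomyelinase. No unigene analysed here carried the names KDSR, DEGS1, CERS1, CERS3, SGPL1, SPHK1, ACER1, GBA3 or CERT1, and 18158 of all unigenes carried a name. CERT1 is another symbol of COL4A3BP, under which that gene was found. Some names differed from the best protein match. An untested unigene named SPHK2 best matched sphingosine kinase 1, and the CERS4 unigene a ceramide synthase 2-like protein. Outside the members, 4 unnamed unigenes best matched such enzymes: 2 a sphingomyelin synthase, 1 a sphingosine kinase and 1 a sphingosine phosphate phosphatase. Of the 59 members, 47 had their best protein match in the Atlantic herring, and 10 were shorter than 400 bases. Unigenes with the same name can be copies, alleles or pieces of the same gene, which the files do not resolve, so they are given singly and, for some names, also as a sum.

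The fish fell into 2 groups of 6, called food intake and no food intake in the labels, each library from the stomach of a separate fish, with gastric mucosa as its labelled source. The labels name no other treatment or allele in either group and give no age, sex, strain, time since the last meal or sampling day. Levels are TPM, a relative abundance that is adjusted for transcript length and sums to nearly the same total in every library (984119 to 992092), so sequencing depth is unknown and precision was judged from the spread between fish. In bulk tissue, fewer cells of a type and less RNA per cell cannot be told apart.

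The gastric label fitted the data in all 12 libraries: pepsinogens, chitinase and the proton pump genes summed to between 58293 and 372235 TPM, although no unigene was named CBLIF. Some libraries stood apart. In food intake 6, 7 rRNA-like unigenes took 64.2% of all TPM, against 4.34% to 26.9% elsewhere, leaving less of the fixed total for all other transcripts. No food intake 3 had the least gastric gland signal and the most smooth muscle signal (26708 TPM, against at most 6858 elsewhere), and no food intake 4 the most leukocyte signal (48.3 TPM, against 11.4 to 32.7). The libraries also fell into a pair of sets by 9 unigenes matching chicken mitochondrial DNA, which were present in 7 libraries and at 0 in 5; the labels name no batch, so what the sets stand for is not known. Set 1 held 3 food intake fish (1, 5 and 6) with 4 of the no food intake fish (1, 2, 4 and 6), and set 2 held the rest.

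The members were expressed at low to moderate levels. Their means over 12 fish ran from 0.566 to 58.9 TPM with a median of 3.59, 10 of them reached 10 TPM and 18 lay under 2 TPM. The most abundant was SPTSSB, a small subunit of serine palmitoyltransferase, followed by the phosphatase SGPP2 and the sphingomyelinase SMPD5. Between the highest and lowest fish a tested member differed by a median of 5.32-fold (2.22 to 41.1, over 50 members with no value of 0).

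Of the 59 members, 52 were tested, those with 1 TPM or more in 6 libraries or more. None was called between food intake and no food intake at an adjusted p under 0.05 (limma on log2(TPM + 1), Benjamini-Hochberg over 40142 unigenes), as for the whole table, where percent called was 0. The smallest adjusted p of a member was 0.768, for SPTSSB. At an unadjusted p under 0.05, 2 members were higher with food intake (the sphingomyelinase SMPD3 and the desaturase DEGS2) and 1 was lower (SPTSSB), against 2.48% and 3.79% of all tested unigenes. Once TPM had been rescaled without the rRNA-like unigenes, this became 5 higher and 1 lower, against 5.68% and 2.53% of all tested unigenes. Without food intake 6 it was 5 higher and 1 lower, against 8.36% and 2.88%. In no tested member did the groups separate without overlap, as they did in 0.167% of all tested unigenes. In size, 43 of the 52 changes were under 0.5 on the log2 scale and 1 exceeded 1.

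**Figure D1:**
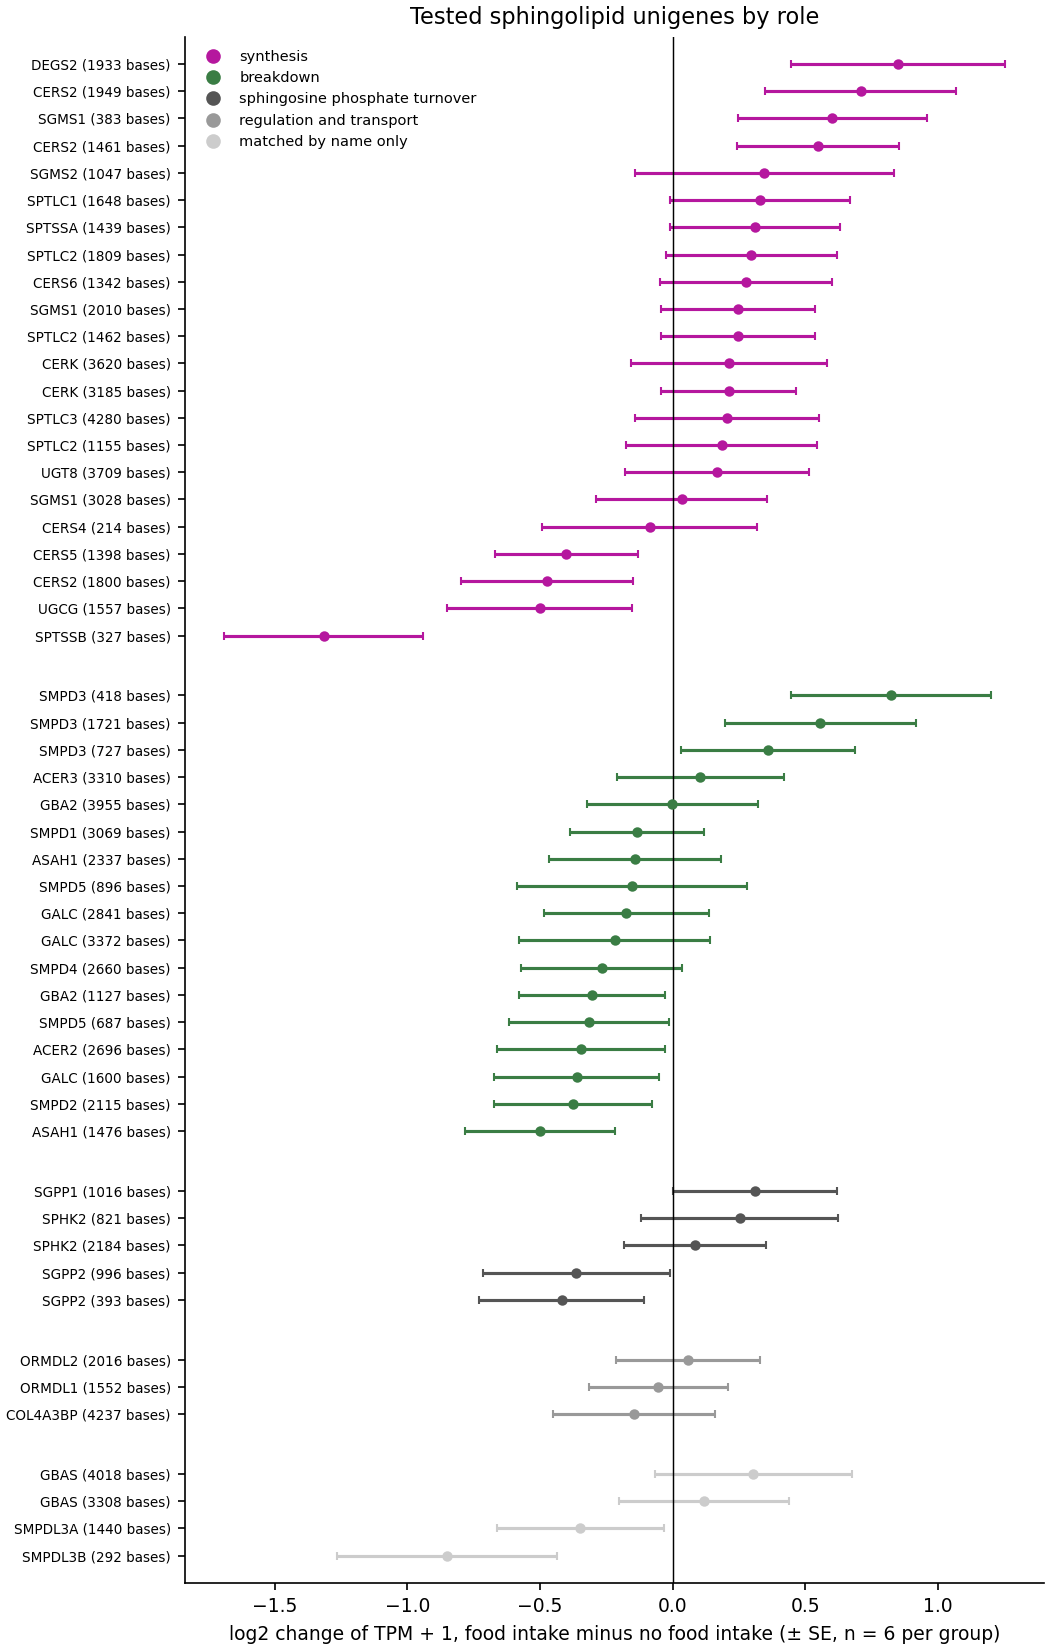
Log2 change of TPM + 1 (food intake minus no food intake, x axis) for the tested unigenes reported here, named with its length on the y axis and coloured by role; points are limma estimates and bars their SE, with 6 fish per group. Most synthesis unigenes lie right of 0 and most breakdown unigenes left of it, SPTSSB at -1.32 lies farthest from 0, and no unigene passed the adjusted threshold.

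Among the subunits of serine palmitoyltransferase, SPTSSB, which in mammals raises the activity of the enzyme and shifts it towards longer acyl chains, had a lower mean with food intake, and the catalytic SPTLC subunits and the other small subunit, SPTSSA, had slightly higher means. None of these differences passed the test. SPTSSB (TRINITY_DN88_c0_g1, 327 bases) measured 18.4, 54.5, 42.5, 33.2, 23.4 and 25.4 TPM in food intake 1 to 6. It measured 84.1, 73.3, 50.1, 150.2, 46.1 and 105.6 TPM in no food intake 1 to 6. All 6 food intake fish lay below the median of the no food intake fish, and the groups overlapped through food intake 2, which exceeded no food intake 3 and 5. After rescaling without the rRNA-like unigenes, food intake 6 reached 71.5 TPM and also exceeded no food intake 3 and 5 (69.3 and 63.4 TPM). The means were 32.9 ± 13.6 and 84.9 ± 38.8 TPM (SD, n = 6 each), a log2 change of -1.32 (SE 0.37) with an unadjusted p of 0.00257 and an adjusted p of 0.768 (limma).

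The difference in SPTSSB was larger in set 1 than in set 2. In set 1 the 3 food intake fish (18.4 to 25.4 TPM) lay below all 4 no food intake fish (73.3 to 150.2 TPM), with a log2 change of -2.12 (limma, adjusted p = 0.415). After rescaling they still lay below, but food intake 6, at 71.5 TPM, came close to the lowest no food intake fish, at 85.5 TPM. In set 2 the values interleaved and the change was -0.17 (limma, adjusted p = 0.926). The difference between the sets was -1.95 (limma interaction term, unadjusted p = 0.00819, adjusted p = 0.681), so it did not pass over all unigenes. For this term 2 of the 52 tested members, SPTSSB and SGMS2, had an unadjusted p under 0.05 (limma), against 6.36% of all tested unigenes. After removal of the rRNA-like unigenes the SPTSSB change over both sets was -1.17, and it lay between -1.48 and -1.13 when each fish was left out in turn.

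The SPTLC subunits carry the catalytic site, SPTLC2 and SPTLC3 being alternative partners of SPTLC1. All 5 SPTLC unigenes had log2 changes above 0, from 0.19 to 0.33, and none passed the test. In set 1 alone 2 of the 5 were above 0 (median -0.19), in set 2 all 5 (median 0.68), and without food intake 2 there were 4. Of all 40142 tested unigenes, 14743, 25188 and 17828 were above 0 in these settings, and 18479 over all fish. SPTLC2 (TRINITY_DN35508_c0_g1), the most abundant of them, ranged from 4.99 through a median of 8.74 to 18.4 TPM with food intake and from 4.27 through 8.21 to 10.8 TPM without. The groups overlapped, though food intake 2 and 4 (18.4 and 13.8 TPM) lay above every no food intake fish. After rescaling food intake 6, at 14.1 TPM, did so too (no food intake at most 11.7 TPM). The log2 change was 0.30 (SE 0.32), -0.22 in set 1 and 0.96 in set 2. SPTSSA ranged from 2.32 to 9.25 TPM with food intake (median 5.84) and from 3.38 to 6.36 TPM without (median 4.01). The groups overlapped (log2 change 0.31, SE 0.32). Food intake 1, 3 and 4 (7.22 to 9.25 TPM) lay above every no food intake fish, and food intake 6 below all. Summed over SPTLC1, SPTLC2 and SPTLC3, the level was 27.9 ± 9.28 TPM with food intake and 21.7 ± 3.74 TPM without (SD, n = 6 each). Food intake 1 to 5 (26.4 to 40.9 TPM) lay above every no food intake fish (14.7 to 25.0 TPM). Food intake 6, at 12.2 TPM, lay below all of them. This sum was not tested.

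Within each fish, the balance of SPTSSB to the catalytic subunits separated the groups. The ratio of SPTSSB to summed SPTLC was 0.652, 1.33, 1.51, 1.05, 0.885 and 2.08 in food intake 1 to 6. It was 3.56, 3.31, 3.40, 6.0, 2.21 and 4.38 in no food intake 1 to 6. Every food intake fish lay below every no food intake fish, narrowly between food intake 6 and no food intake 5. In set 1 the ratios were at most 2.08 against at least 3.31, and in set 2 at most 1.51 against at least 2.21. In set 2 SPTSSB itself interleaved. There the summed SPTLC was 28.2 to 40.9 TPM with food intake, and 14.7 and 20.8 TPM in no food intake 3 and 5. The ratio of SPTSSB to summed SPTLC was formed after the values were seen, and it carries no test. How often other ratios between members separate the groups was not examined. A ratio within a fish does not move when all TPM of its library are rescaled. The ratio of SPTSSB to SPTSSA ran from 2.54 to 16.1 with food intake and from 12.9 to 25.4 without, and overlapped.

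**Figure D2:**
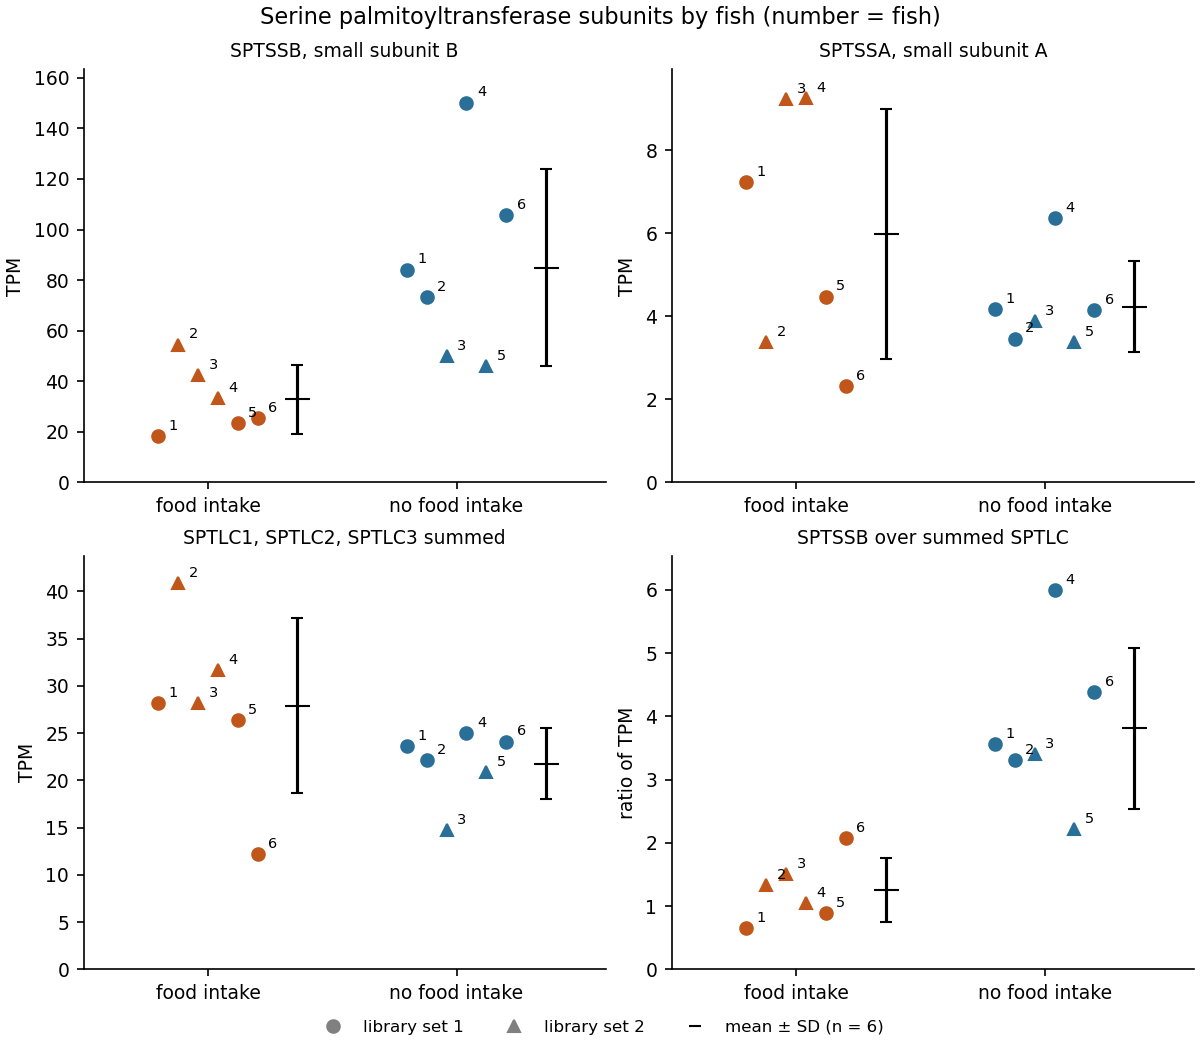
TPM per fish (y axes) of SPTSSB, SPTSSA and the summed SPTLC subunits, and the within-fish ratio of SPTSSB to summed SPTLC, by group (x axes); each point is a numbered fish, circles are library set 1, triangles library set 2, and the bar is the mean ± SD of 6 fish. SPTSSB has a lower mean with food intake, but its groups overlap. The ratio, formed after the values were seen and not tested, does not overlap (0.652 to 2.08 against 2.21 to 6.0). SPTSSA overlaps between the groups. The SPTLC sum overlaps only through food intake 6 (12.2 TPM), which lies below all no food intake fish (14.7 to 25.0 TPM).

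The ORMDL proteins sit on serine palmitoyltransferase and inhibit it when ceramide is plentiful. ORMDL1 measured 1.80 ± 0.704 TPM with food intake and 1.88 ± 0.584 TPM without, and ORMDL2 4.04 ± 1.5 and 3.64 ± 0.354 TPM (SD, n = 6 each). Their log2 changes were -0.05 (SE 0.26) and 0.06 (SE 0.27). A pair of short ORMDL3 unigenes was listed at 0 in several fish of both groups and was not tested.

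Ceramide synthases differ in the fatty acid they attach: in mammals CERS2 uses very long acyl chains, while CERS5 and CERS6 use palmitate. Of 6 tested unigenes, 3 had log2 changes above 0 and 3 below. CERS2 itself split by unigene. The most abundant (TRINITY_DN31181_c0_g1, whose best match is a protein described as ceramide synthase 3) ranged from 3.26 through a median of 8.78 to 11.5 TPM with food intake and from 7.31 through 10.4 to 18.5 TPM without, a log2 change of -0.47 (SE 0.33). The others, TRINITY_DN26560_c0_g1 and TRINITY_DN26560_c0_g4, lay higher with food intake. The first had medians of 3.56 and 1.99 TPM and a change of 0.55 (SE 0.31), with all 6 food intake fish above the no food intake median. Its change was 0.89 in set 1 but 0.02 in set 2. The other had medians of 2.95 and 1.13 TPM and a change of 0.71 (SE 0.36), 0.61 in set 1 and 0.91 in set 2. In all 3 the groups overlapped, and summed over CERS2 unigenes the log2 change was -0.03 (SE 0.30). CERS5 changed by -0.40, the tested CERS6 unigene by 0.28 and a 214-base CERS4 fragment by -0.09, and none passed the test. Summed with its untested fragment, CERS6 changed by -0.08 (SE 0.37).

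DEGS2, a dihydroceramide desaturase that in mammals also hydroxylates the base to give phytoceramides, had the largest positive change of the members as tested; with a pseudocount of 0.1, quantile normalization or rescaling, an SMPD3 unigene had a larger one. It measured 5.69, 2.32, 2.90, 8.04, 4.83 and 0.39 TPM in food intake 1 to 6, and 1.93, 1.16, 0.46, 1.88, 0.78 and 2.90 TPM in no food intake 1 to 6. Food intake 6 was the lowest of all fish, though not after rescaling (1.10 TPM, against 0.636 in no food intake 3), and the other 5 lay above the no food intake median. The means were 4.03 ± 2.72 and 1.52 ± 0.895 TPM (SD, n = 6 each), a log2 change of 0.85 (SE 0.40, limma, unadjusted p = 0.0494, adjusted p = 0.795). It was 0.38 in set 1 and 1.6 in set 2. Without food intake 6 it was 1.18, with an adjusted p of 0.221 (limma), the smallest of any member under any alternative setting tried.

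Ceramide then takes a head group. Sphingomyelin synthases, which transfer phosphocholine to ceramide, had 4 tested unigenes, all with log2 changes above 0 (0.03 to 0.60). SGMS2, the plasma membrane form in mammals, was the most abundant of them: its lowest, median and highest values were 5.14, 15.6 and 49.1 TPM with food intake and 5.74, 10.5 and 34.7 TPM without. The groups overlapped along their whole range, with a log2 change of 0.35 (SE 0.49). The change was -0.52 in set 1 and 1.57 in set 2 (difference -2.09, limma interaction term, unadjusted p = 0.0389, adjusted p = 0.768). SGMS1, the Golgi form, had its main unigene (TRINITY_DN33049_c1_g1) at 11.1 ± 2.75 and 11.4 ± 5.01 TPM (SD, n = 6 each). Its log2 change was 0.03 (SE 0.32), and the less abundant SGMS1 unigenes of 383 and 2010 bases changed by 0.60 and 0.25. In set 1 alone 2 of the 4 sphingomyelin synthase unigenes were above 0 (median -0.09), and in set 2 all 4 (median 0.56). With a fish left out it was 3 or 4. Of all 40142 tested unigenes, 14743 were above 0 in set 1, 25188 in set 2 and 18479 over all fish.

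The other branches of ceramide use went different ways, all within the spread between fish. UGCG, which makes glucosylceramide, ranged from 1.94 through a median of 3.46 to 8.78 TPM with food intake and from 3.27 through 5.36 to 11.2 TPM without, a log2 change of -0.50 (SE 0.35). Only food intake 5 lay above the no food intake median. UGT8, which makes galactosylceramide, ranged from 2.33 through 9.21 to 9.98 TPM with food intake and from 3.46 through 6.75 to 11.4 TPM without. Here 5 food intake fish lay close together above the no food intake median and food intake 6 lay far below, at 6.57 TPM after rescaling (log2 change 0.17, SE 0.35). The pair of CERK unigenes, for ceramide kinase, each changed by 0.21 (SE 0.37 and 0.25). COL4A3BP, the protein that carries ceramide from the endoplasmic reticulum to the Golgi, measured 8.23 ± 3.19 and 8.78 ± 1.83 TPM (SD, n = 6 each) and changed by -0.15 (SE 0.31).

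On the breakdown side, sphingomyelinases cleave sphingomyelin to ceramide. SMPD5, a neutral sphingomyelinase known from zebrafish and mouse, made up 22.9% to 42.6% of summed breakdown TPM with food intake and 22.7% to 42.1% without. Its main unigene (TRINITY_DN32848_c1_g1) had lowest, median and highest values of 11.9, 29.9 and 70.0 TPM with food intake and 22.9, 25.8 and 99.0 TPM without. Food intake 3 and no food intake 4 stood far above all others, and the remaining fish overlapped, with a log2 change of -0.15 (SE 0.43). Of the 8 tested sphingomyelinase unigenes, 3 had log2 changes above 0 and 5 below.

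Those 3 all carried the name SMPD3, the neutral sphingomyelinase that in mammals acts at the plasma membrane and Golgi. The 418-base unigene TRINITY_DN14398_c0_g1 measured 3.85, 2.88, 0.82, 3.68, 4.52 and 0.72 TPM in food intake 1 to 6, and 1.24, 0.46, 0.11, 0.44, 2.29 and 1.87 TPM in no food intake 1 to 6. In food intake 1, 2, 4 and 5 it exceeded every no food intake fish, and food intake 3 and 6 lay within their range. The log2 change was 0.82 (SE 0.38, limma, unadjusted p = 0.0430, adjusted p = 0.788), 0.90 in set 1 and 0.75 in set 2. The longer unigene TRINITY_DN30446_c0_g5 had medians of 6.04 and 3.56 TPM and a change of 0.56 (SE 0.36), 0.03 in set 1 and 1.28 in set 2. Summed over its 3 unigenes, SMPD3 was at 10.1 ± 4.34 TPM with food intake and 5.68 ± 2.95 TPM without (SD, n = 6 each), with a log2 change of 0.74 (SE 0.40, limma, unadjusted p = 0.0804, adjusted p = 0.807).

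SMPD1, the lysosomal acid sphingomyelinase, and the neutral forms SMPD2 and SMPD4 lay slightly lower with food intake, by -0.13, -0.37 and -0.27 on the log2 scale, none past the test. The second SMPD5 unigene, of 687 bases, changed by -0.32. Its best match is a protein described as sphingomyelin phosphodiesterase 3-like.

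Glycosidases remove sugars from glycosphingolipids, most of them in the lysosome. The 3 unigenes of GALC, which removes galactose from galactosylceramide, had log2 changes of -0.17, -0.22 and -0.36. Their sum was 19.99, 24.3, 22.8, 22.7, 30.6 and 10.04 TPM in food intake 1 to 6, and 22.9, 23.4, 16.6, 54.0, 22.8 and 21.9 TPM in no food intake 1 to 6. Apart from the high no food intake 4 and the low food intake 6 the fish lay together, between 16.6 and 30.6 TPM, and the log2 change of the sum was -0.26 (SE 0.34). After rescaling food intake 6 was at 28.3 TPM, amid the other food intake fish (24.1 to 33.4 TPM), and no food intake 4 was still the highest, at 61.7 TPM. The main unigene of GBA2, which removes glucose from glucosylceramide outside the lysosome, was level (log2 change -0.00, SE 0.32) at 7.09 ± 2.80 and 6.74 ± 1.81 TPM (SD, n = 6 each).

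Ceramidases release sphingosine. ACER2, an alkaline ceramidase of the Golgi in mammals, was the most abundant, with lowest, median and highest values of 9.49, 15.1 and 24.1 TPM with food intake and 13.04, 18.4 and 31.4 TPM without. Only food intake 2 lay above the no food intake median, and the log2 change was -0.35 (SE 0.32), -0.37 in set 1 and -0.53 in set 2. After rescaling food intake 6 lay above that median too, and the change was -0.20. ASAH1, the lysosomal acid ceramidase, had a main unigene with medians of 10.6 and 11.2 TPM and a change of -0.14 (SE 0.32). Its second unigene (TRINITY_DN28669_c2_g2) ranged from 2.19 to 2.93 TPM in 5 food intake fish, with food intake 3 at 6.40 TPM, and from 3.15 to 5.95 TPM in the no food intake fish. All food intake fish but food intake 3 lay below every no food intake fish, but after rescaling food intake 6 was the highest of the 12 fish, at 8.20 TPM. The change was -0.50 (SE 0.28, limma, unadjusted p = 0.0957, adjusted p = 0.806). ACER3 changed by 0.11 (SE 0.32), and ASAH2, a neutral ceramidase, stayed under the level for testing at 1.09 ± 0.825 and 0.635 ± 0.308 TPM (SD, n = 6 each).

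**Figure D3:**
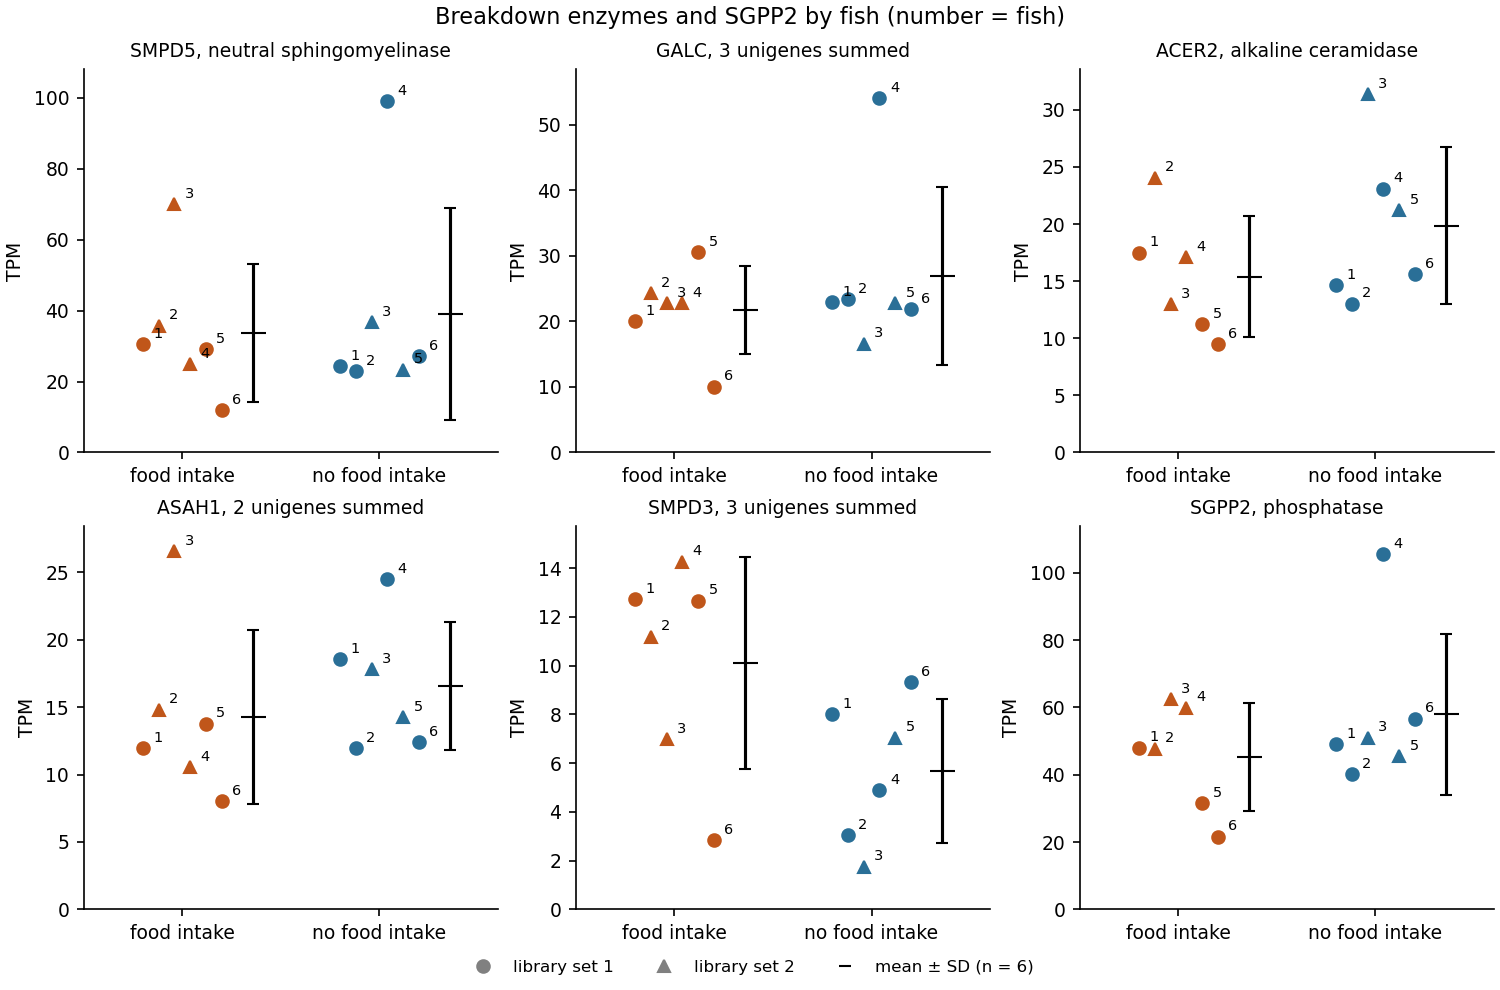
TPM per fish (y axes) of breakdown enzymes and of the phosphatase SGPP2, by group (x axes); each point is a numbered fish, circles are library set 1, triangles library set 2, and the bar is the mean ± SD of 6 fish. The groups overlap in every panel; no food intake 4 is the highest point for SMPD5 (99.0 TPM), GALC (54.0 TPM) and SGPP2 (105 TPM), and SMPD3 alone of these has its higher mean with food intake.

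Sphingosine 1-phosphate is made by sphingosine kinases and returned to sphingosine by the phosphatases SGPP1 and SGPP2. SGPP2 was by far the most abundant gene of this group, with lowest, median and highest values of 21.6, 47.9 and 62.5 TPM with food intake and 40.2, 50.1 and 105 TPM without (TRINITY_DN34435_c1_g5). The medians were close, food intake 5 and 6 lay below all no food intake fish and no food intake 4 above all others. After rescaling, food intake 6, at 60.9 TPM, lay above no food intake 1 and 2 (53.0 and 46.9 TPM). The log2 change was -0.36 (SE 0.35), -0.85 in set 1 and 0.22 in set 2. The kinase SPHK2 was low, its tested unigenes at 1.18 to 1.88 TPM as group means with changes of 0.25 and 0.09. Of the 5 tested turnover unigenes 3 had changes above 0 and 2 below, with a median of 0.09.

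By role, most fitted changes of synthesis unigenes were above 0 and most of breakdown unigenes below 0; all of these unigenes overlapped between the groups and none passed the test. Of 22 tested synthesis unigenes, 17 had a log2 change above 0 (median 0.23, from -1.32 to 0.85), where 46.0% of all tested unigenes did. Several of these unigenes share a gene name. Summed by gene name, 9 of 15 synthesis names were above 0 (median 0.20), where 16349 of all 35984 tested in that way were. All 4 ceramide synthase names then lay below 0. Of 18 tested breakdown unigenes, 13 had a change below 0 (median -0.16, from -0.50 to 0.82), where 54.0% of all did. That count rested on single fish: without food intake 6 it was 9 of 18 (median -0.010, 44.5% of all unigenes below 0), and without no food intake 4 it was 10 of 18 (median -0.011, 46.6% of all). After rescaling it was 12 of 18, where 44.3% of all were below 0. Summed by gene name, 8 of 11 breakdown names were below 0 (median -0.19). The median over all tested unigenes was -0.04, and rescaling without the rRNA-like unigenes moved it to 0.06, that of synthesis to 0.34 and that of breakdown to -0.03. All unigenes were measured in the same 12 fish, so these counts are a description and carry no test. Of the tested cell type marker unigenes none was called. Above 0 were 21 of 25 gastric gland unigenes (median 0.55) and 6 of 7 exocrine pancreas unigenes (0.35). So were 8 of 11 surface mucous (0.03), 4 of 7 erythrocyte (0.09) and 12 of 29 smooth muscle unigenes (-0.03). For fibroblast and matrix it was 7 of 20 (-0.04), and for leukocytes 1 of 5 (-0.31). Summed gastric gland TPM had medians of 284745 with food intake and 257448 without, and leukocyte TPM 20.9 and 20.8. The part of these cell types in the role medians was not tested.

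The medians of the roles did not keep their signs within the library sets, but their order did. In set 1 the synthesis median was -0.12, with 9 of 22 above 0, and the breakdown median -0.36, with 14 of 18 below 0, beside a median of -0.19 over all unigenes. Of all 40142 tested unigenes, 14743 were above 0 in set 1 and 25188 in set 2. In set 2 the synthesis and breakdown medians were 0.58, with 18 of 22 above 0, and 0.26, with 4 of 18 below 0, beside 0.18 over all unigenes. The synthesis median exceeded the breakdown median by 0.39 over all fish, by 0.24 in set 1 and by 0.32 in set 2.

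Within single fish the median log2(TPM + 1) of the synthesis unigenes minus that of the breakdown unigenes was 0.21, -0.33, -0.36, 0.14, -0.10 and 0.03 in food intake 1 to 6. It was -0.29, -0.42, -0.28, -0.81, -0.17 and -0.26 in no food intake 1 to 6. Food intake 1, 4, 5 and 6 lay above every no food intake fish, while food intake 2 and 3 lay among them. The means were -0.07 ± 0.24 and -0.37 ± 0.23 (SD, n = 6 each). Without no food intake 4, the farthest fish, the difference between the role medians of the fitted changes was 0.31, and without food intake 6 it was 0.46.

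**Figure D4:**
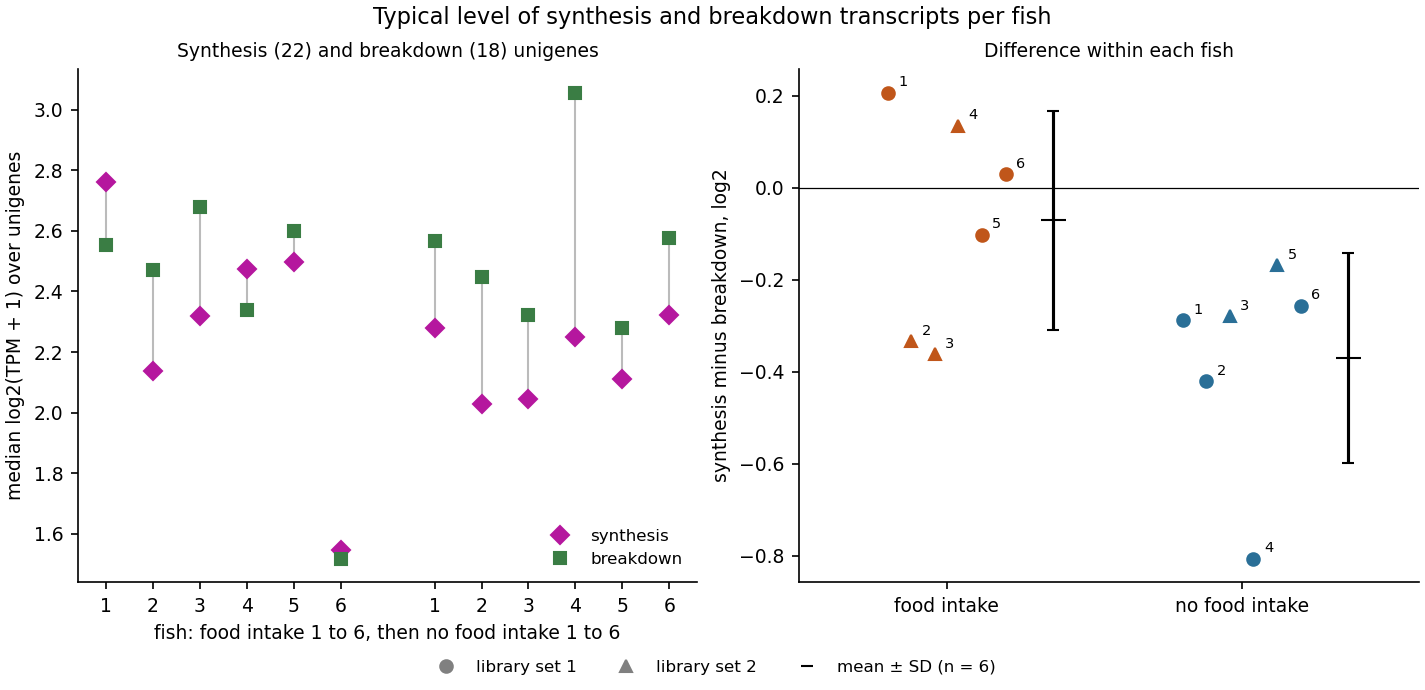
Left, the median log2(TPM + 1) of 22 synthesis (diamonds) and 18 breakdown unigenes (squares) in each fish; right, the difference between them by group, with circles for library set 1, triangles for library set 2 and bars for mean ± SD of 6 fish. Food intake 6 is low for both roles (1.55 and 1.52, but 2.68 and 2.65 after rescaling), no food intake 4 is high for breakdown (3.06), and the differences overlap between groups (-0.36 to 0.21 against -0.81 to -0.17).

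Summed levels gave another order. SPTSSB alone was a large part of synthesis TPM, 12.9% to 34.8% with food intake and 33.6% to 50.2% without. The ratio of summed synthesis to summed breakdown TPM was 1.2 ± 0.23 with food intake and 1.33 ± 0.34 without (SD, n = 6 each). With SPTSSB left out it was 0.931 ± 0.227 with food intake and 0.733 ± 0.173 without. The ranges overlapped both ways, 0.714 to 1.36 against 0.493 to 0.977 without SPTSSB.

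Single fish set much of the spread. Food intake 6, the library with 64.2% rRNA-like TPM, was the lowest of the 12 fish in 31 of 52 tested members and in 35.6% of all tested unigenes; after rescaling it was the lowest in 2 members. No food intake 4, with the highest leukocyte marker sum, was the highest in 15 members before and after rescaling, and in 22.8% of all tested unigenes before it. All 3 GALC unigenes, SMPD5, SGPP2 and SPTSSB were among those highest there. The leukocyte list had 4 of its 6 symbols among the unigenes and summed to 11.4 to 29.4 TPM with food intake and 13.03 to 48.3 TPM without; its part in these values was not tested. No food intake 3, with the high smooth muscle signal, was the lowest fish in 9 members and in 7.42% of all tested unigenes. Without it the SPTSSB change was -1.44. After rescaling no food intake 3 was the lowest in 12 members, and no food intake 2 in 14. Before it, no food intake 2 was the lowest in 4 members and in 7.94% of all tested unigenes. Shares of all tested unigenes after rescaling were not computed, so the rescaled counts have no background beside them. Food intake 4 was the highest fish in 11 members and in 7.16% of all tested unigenes, and in 5 members after rescaling.

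The other members carried no role. GBAS changed by 0.12 and 0.31, SMPDL3A by -0.35 and a 292-base SMPDL3B fragment by -0.85 (SE 0.41, limma, unadjusted p = 0.0550, adjusted p = 0.802). The 7 untested unigenes were those of ASAH2, a CERS6 fragment, both of ORMDL3, and one each of SGPP1, SMPDL3B and SPHK2. Each averaged at most 1.42 TPM in either group.

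Neighbouring steps of the pathway were represented by 45 further symbols for fatty acid elongation, glycosphingolipid assembly, lysosomal degradation and sphingosine 1-phosphate receptors. Of these, 30 were found, with 53 unigenes and 44 tested. None was called at an adjusted p under 0.05 (limma), 23 had log2 changes above 0 and 21 below, and the median was 0.01. At an unadjusted p under 0.05, 2 were higher with food intake and 0 lower. Among them was HACD2, a dehydratase of very long fatty acid synthesis, at 2.95 ± 2.16 and 1.03 ± 0.519 TPM (SD, n = 6 each). Food intake 1 was the highest fish for HACD2, and food intake 6 and no food intake 3 were the lowest.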

How the data were processed

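Stomach RNA of 12 fish was extracted with TRIzol, and its libraries were read as paired ends on an Illumina HiSeq machine, per the labels' protocols. The submitters' processing notes name cutadapt and FastQC without versions. The authors deposited 1 table of unigenes, assembled without a genome, and its values were read as TPM because each library sums to nearly 1000000. The quantifier is not given in the sources used here, nor is the annotation database.

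Every unigene with 1 TPM or more in 6 libraries or more (40142) was tested on log2(TPM + 1) with limma 3.58.1 in R 4.3.3, with a variance trend, group as the sole term and Benjamini-Hochberg adjustment at 0.05. Direction is food intake minus no food intake, and this scale understates the changes of low unigenes. The script was tested on simulated data. P-values weigh the difference between the group means against the spread among fish within the groups. Depth is unknown, so no counting interval could be given. Tables and figures were made with Python 3.11.15 and matplotlib 3.10.9.

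Members and lists were chosen with earlier results of these data known. Values were given for the most abundant unigene of each family in synthesis and breakdown and for members at unadjusted p under 0.05 (13 unigenes); 12 more were added after their values were seen. The 7 rRNA-like unigenes averaged 1000 TPM or more and correlated, on the log scale, at 0.95 or above with a unigene annotated as an rRNA-antisense protein. Alternatives covered the pseudocount, filter, scaling, variance trend, library set, replicate number, single fish, and unigenes per gene name. Equal replicate numbers did not pair fish. Some members that enter the counts are not reported here singly.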

Additional observations from a re-analysis of the deposited data

Results flagged for a closer look

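Among 62 groups of 6 values looked at (the named unigenes and the per-fish summaries), 10 had a fish standing apart from its group by more than Dixon's critical value for 6 values. That value flags about 1 group in 20 when values are independent and normally distributed. These groups come from the same 12 fish, so the 10 cannot be weighed against that rate. No food intake 4 accounted for 5 of the 10, all on the high side: GALC at 19.9 TPM (TRINITY_DN27256_c2_g3) and 23.9 TPM (TRINITY_DN35137_c0_g1), SMPD5 at 99.0 TPM, SGPP2 at 105 TPM and SPTSSA at 6.36 TPM. This fish also had the highest leukocyte marker sum, 48.3 TPM, whose part in these values was not tested. Food intake 6 was low for UGT8, at 2.33 TPM, and for the breakdown median, at 1.52 on the log2(TPM + 1) scale; its rRNA-like share was 64.2%, and after rescaling without the rRNA-like unigenes these were 6.57 TPM and 2.65, neither past the critical value. The same rescaling brought GALC TRINITY_DN27256_c2_g3, SPTSSA and the second ASAH1 unigene below it as well. It also brought groups past the critical value that were not past it before. Among them was SMPD5 with food intake, through food intake 3 at 83.2 TPM. In the no food intake group they included SGMS1 TRINITY_DN1120_c0_g1 (no food intake 2, 0.443 TPM) and the breakdown median (no food intake 4, 3.23). Single food intake fish were high for UGCG (food intake 5, 8.78 TPM), SGMS2 (food intake 4, 49.1 TPM) and the second ASAH1 unigene (food intake 3, 6.40 TPM).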

How the results depend on the processing

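Under all 24 alternative settings no member was called at an adjusted p under 0.05 (limma), and the synthesis median stayed above the breakdown median, by 0.31 to 0.49 with each fish left out and by 0.39 over all fish. The count of members higher at an unadjusted p under 0.05 (2 as reported) was 1 with a pseudocount of 0.1, without a filter, without a variance trend and with the replicate block, 0 with a minimum of 5 TPM, in library set 1 alone, with TPM summed by gene name and with the most abundant unigene per name, and 5 after rescaling, where 5.68% of all tested unigenes passed. With a fish left out it was 0 to 5: 0 without food intake 1, 4 or 5 or no food intake 2, 3 or 4, 1 without food intake 2 or 3 or no food intake 1, and 5 without food intake 6, where 8.36% of all tested unigenes passed. The count lower (1 as reported) was 2 with a pseudocount of 0.1 and with quantile normalization, 0 in set 2 alone, and 1 to 2 with a fish left out (2 without food intake 2, 3 or 5 or no food intake 1 or 5).

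Synthesis unigenes above 0 (17 of 22 as reported) numbered 5 of 7 with a minimum of 5 TPM and 9 of 15 with summed names. They numbered 10 of 15 with the most abundant unigene per name and 9 of 22 in set 1 alone. Over all unigenes, the counts above 0 in these settings were 4367 of 9586, 16349 of 35984, 16160 of 35679 and 14743 of 40142. Breakdown unigenes below 0 (13 of 18 as reported) numbered 6 of 8 with a minimum of 5 TPM. They numbered 8 of 11 both with summed names and with the most abundant unigene per name. In set 2 alone they numbered 4 of 18, where 25188 of all 40142 unigenes were above 0. With a fish left out they numbered 9 to 14. They numbered 9 when food intake 6 was omitted and 10 when no food intake 4 was, with medians of -0.010 and -0.011. The synthesis median was -0.12 in set 1 and 0.58 in set 2, and the breakdown median was 0.26 in set 2.

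Of 573 values of the 25 named unigenes under alternatives, 543 kept their direction and 30 reversed, none of them past the test. In set 2 alone these were GALC (0.024, 0.24 and 0.49), GBA2 (0.29), SMPD5 (0.43), UGCG (0.033), ASAH1 (0.15) and SGPP2 (0.22). In set 1 alone they were UGT8 (-0.29), CERK (-0.20), SPTLC2 (-0.22), SGMS2 (-0.52), SPTSSA (-0.036) and SGMS1 (-0.28). GBA2, at -0.00, was 0.0084 with quantile normalization and 0.12 after rescaling. With a fish left out, the log2 changes ran from -0.27 to 0.00024 and from -0.38 to 0.039 for GALC (TRINITY_DN27256_c2_g3, TRINITY_DN35137_c0_g1), -0.13 to 0.24 for GBA2, -0.40 to 0.16 for SMPD5, -0.32 to 0.035 for ASAH1 and -0.14 to 0.21 for SGMS1. The cause of these changes was not tested.

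Fish with the same number did not deviate together (correlations of -0.10 to 0.11, and 0 of 6 fish closest to its own number); with the replicate number as a block, SPTSSB had a limma adjusted p of 0.784. Depth is not recorded by TPM, so low unigenes cannot be weighed by their reads.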
